A study of Homo sapiens with 12 samples.

Results

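DHRS2, ATP10A and REEP1 are 3 genes whose transcripts were lower in MDA-MB-231 cells carrying an LSD1 shRNA than in the scramble cells of the same experiment. They were taken by name, and each is read by 2 probe sets, so 6 of the 22215 non-control probe sets and 3 of the 11963 genes with 1 symbol are described. MDA-MB-231 is an established human breast cancer line of the triple-negative kind. The arrays form 4 groups of 3: cells with LSD1 shRNA, cells with the scramble shRNA tagged as the LSD1 set, cells with HDAC5 shRNA, and cells with an untagged scramble shRNA, taken here as the HDAC5 set because the other carries the LSD1 tag. The labels do not say whether the transduced cells were a pool or a clone, or how long after transduction RNA was taken. All cells received lentiviral particles, the replicates are called biological without a word on what separates them, so the p-values measure the spread between these samples, which may be technical.

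LSD1, encoded by KDM1A, is a flavin-dependent demethylase of histone lysines that works with CoREST and histone deacetylases. HDAC5 is a class IIa histone deacetylase. DHRS2 (also called HEP27) encodes a short-chain dehydrogenase/reductase, an enzyme family that moves hydride between NAD(P)H and carbonyl or hydroxyl groups, and it is known as a gene induced by histone deacetylase inhibitors and as a binder of MDM2, the ubiquitin ligase of p53. ATP10A encodes a P4-type ATPase, a flippase that carries phosphatidylcholine from the outer to the inner leaflet of the plasma membrane together with a CDC50 subunit. It lies in the imprinted region of chromosome 15 beside UBE3A. REEP1 encodes a hairpin membrane protein that shapes tubules of the endoplasmic reticulum, and its mutations cause a form of hereditary spastic paraplegia.

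KDM1A fell 8.48-fold with LSD1 shRNA and HDAC5 fell 2.16-fold with HDAC5 shRNA (limma adjusted p = 6.99e-05 and 1.61e-05). The line's markers VIM, CD44, MSN, EGFR, CAV1 and ANXA1 were at 9.41 or above (log2) on every array, although EGFR fell with both LSD1 shRNA (-1.02) and HDAC5 shRNA (-0.78), and the progesterone receptor gene PGR lay below the lower quartile on all 12. The other 7 of 8 luminal or receptor-positive markers were above the lower quartile on every array, which is a rank and no cut-off for expression. These included KRT18 (at least 12.15), KRT19 (9.30), XBP1 (8.93), ERBB2 (8.15) and GATA3 (8.05). ESR1 was at 5.43 to 6.49 and FOXA1 at 5.89 to 6.88. The list was drawn up as absent in such a line, a label that does not hold for KRT18 at this signal. The log2 of the summed signal of the 8 was 13.29 to 13.34 with LSD1 shRNA and 13.05 to 13.12 with its scramble, which did not overlap. It was 12.86 to 12.95 with HDAC5 shRNA and 12.93 to 13.05 with its scramble. Such a sum follows its brightest genes, here KRT18, and none of the 8 passed by limma with LSD1 shRNA. KRT19 (0.43), KRT18 (0.30), FOXA1 (0.29) and ESR1 (0.07) differed upward there. ERBB2 (-0.41), XBP1 (-0.14), PGR (-0.14) and GATA3 (-0.07) differed downward. For the line's own 6 markers the log2 of the summed signal was 15.34 to 15.37 with LSD1 shRNA and 15.42 to 15.46 with its scramble, also apart. It was 14.98 to 15.05 with HDAC5 shRNA and 14.94 to 15.00 with its scramble. Of 4 measured blood markers PTPRC was below the lower quartile on every array, and of 5 endothelial and fibroblast markers CDH5, VWF and LUM were. The blood markers CD3E and HBB and the endothelial marker PECAM1 were above it on every array, while CD14 was below it on 6 and DCN on 1. The log2 of the summed signal of the blood markers was 7.76 to 7.99 with LSD1 shRNA and 7.83 to 7.92 with its scramble, and 7.50 to 7.75 with HDAC5 shRNA and 7.66 to 7.79 with its scramble. For endothelial and fibroblast markers it was 7.46 to 7.93 with LSD1 shRNA and 7.60 to 7.68 with its scramble. It was 7.30 to 7.47 with HDAC5 shRNA and 7.83 to 7.88 with its scramble, which did not overlap. LUM was the marker of these that rose with LSD1 shRNA (1.54, limma adjusted p = 0.0190). With HDAC5 shRNA PECAM1 (-0.62, limma adjusted p = 0.000143) and VWF (-0.31, 0.0236) fell. The part of all these markers in the results was not tested. Array medians were 7.05 to 7.15 in the LSD1 experiment and 6.58 to 6.64 in the HDAC5 experiment, so shRNA arrays were set against their own scramble arrays. The bulk RNA of a culture cannot tell fewer cells with a transcript from less of it in each cell.

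The windows around the start sites of the 3 genes, from 250 bases before the start to 50 after it, are shown because the transcripts were lower together with LSD1 shRNA. They come from RefSeq for GRCh38.p14 and run 5′ to 3′ on the gene's strand. Capitals mark matches, on either strand, to the TATA element TATAAA, to GGGCGG, the core of GC boxes, and to CAGGTG, an E-box that the SNAI1 repressor, a partner of LSD1, can bind. DHRS2 lies at chr14:23629865-23630164 on the plus strand, ATP10A at chr15:25863278-25863577 on the minus strand, and REEP1 has 2 annotated starts on the minus strand, at chr2:86338034-86338333 and chr2:86337577-86337876.
DHRS2: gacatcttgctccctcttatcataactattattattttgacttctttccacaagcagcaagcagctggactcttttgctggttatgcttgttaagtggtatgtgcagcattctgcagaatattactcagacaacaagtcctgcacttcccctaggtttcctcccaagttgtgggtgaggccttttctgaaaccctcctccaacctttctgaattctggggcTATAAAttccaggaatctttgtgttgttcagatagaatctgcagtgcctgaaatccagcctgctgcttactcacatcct
ATP10A: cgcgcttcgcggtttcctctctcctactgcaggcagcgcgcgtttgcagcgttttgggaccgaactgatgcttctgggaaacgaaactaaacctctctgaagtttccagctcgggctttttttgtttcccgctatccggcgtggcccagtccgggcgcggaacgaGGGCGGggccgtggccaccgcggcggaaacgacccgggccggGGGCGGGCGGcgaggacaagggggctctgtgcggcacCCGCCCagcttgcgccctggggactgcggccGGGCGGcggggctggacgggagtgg
REEP1, upstream start: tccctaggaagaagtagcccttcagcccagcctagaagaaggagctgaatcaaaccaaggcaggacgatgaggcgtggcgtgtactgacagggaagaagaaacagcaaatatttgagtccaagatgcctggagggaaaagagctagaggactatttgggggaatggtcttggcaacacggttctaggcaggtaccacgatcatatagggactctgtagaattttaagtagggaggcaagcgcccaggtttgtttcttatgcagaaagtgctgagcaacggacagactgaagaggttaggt
REEP1, downstream start: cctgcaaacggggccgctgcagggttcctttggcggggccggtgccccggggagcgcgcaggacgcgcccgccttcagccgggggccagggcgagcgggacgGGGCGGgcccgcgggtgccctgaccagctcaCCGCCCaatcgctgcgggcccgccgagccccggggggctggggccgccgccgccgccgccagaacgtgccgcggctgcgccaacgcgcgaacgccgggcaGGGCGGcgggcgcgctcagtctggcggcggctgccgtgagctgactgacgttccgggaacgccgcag
The DHRS2 window held 0 CG dinucleotides and the other windows 37 (ATP10A), 7 (REEP1, upstream) and 48 (REEP1, downstream), against a median of 14 over 35116 windows of the same length. TATAAA began at position -29 of DHRS2, relative to the start, and is present in 11.5% of all windows. GGGCGG matched 5 times in ATP10A, where the matches at -43 and -39 overlap, and 3 times in the downstream REEP1 window, and 45.0% of windows hold it. CAGGTG, held by 20.6% of windows, was in none of the 4. The 3 genes thus did not share a promoter type: a TATA element with no CG dinucleotide stood at DHRS2, and CG-rich windows at ATP10A and at the downstream start of REEP1. The files do not say which start of REEP1 these cells use.

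With LSD1 shRNA the brighter DHRS2 probe set was 4.81-fold lower than on the scramble arrays. It had log2 values of 6.95, 6.31 and 7.29 on LSD1 shRNA arrays 1, 2 and 3, against 9.21, 8.95 and 9.20 on the A, B and C scramble arrays. The groups were separated by 1.66 log2 units, and array 2 was the lowest of the 3. The means were 6.85 ± 0.50 with LSD1 shRNA and 9.12 ± 0.15 with its scramble (SD, n = 3 each), a difference of -2.27 (SE 0.24). The SD among LSD1 shRNA arrays was larger than that of 96.3% of genes in that group. Within each array, this probe set stood at percentiles 48.7, 40.3 and 52.4 of all probe sets with LSD1 shRNA, and at 73.5, 70.3 and 73.5 with its scramble.

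The dimmer DHRS2 probe set, whose name ending _s_at means that its probes can match several transcripts, moved less. It had 7.12, 7.02 and 7.36 with LSD1 shRNA, against 8.18, 7.73 and 7.93 with its scramble. The groups were again apart, with array 2 lowest, but the difference was -0.78 (SE 0.15), and the brighter one minus the dimmer one was -1.49.

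The brighter ATP10A probe set was close to the dim end of the array with LSD1 shRNA. Its values were 5.46, 5.33 and 5.14 on LSD1 shRNA arrays 1, 2 and 3, against 7.42, 7.37 and 7.08 on the A, B and C scramble arrays. All shRNA arrays lay below all scramble arrays, by at least 1.62 log2 units. The means were 5.31 ± 0.16 with LSD1 shRNA and 7.29 ± 0.18 with its scramble (SD, n = 3 each), a difference of -1.98 (SE 0.13) or 3.95-fold. The lower quartile of all probe sets was 5.23 to 5.26 on the LSD1 shRNA arrays, and array 3 was below it, in the range where RMA compresses ratios.

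The dimmer ATP10A probe set did not show this difference. It had 5.15, 5.15 and 5.14 with LSD1 shRNA, against 5.26, 5.15 and 5.41 with its scramble. The groups met at scramble array B, and the difference was -0.12 (SE 0.08). This probe set lay between percentiles 23.4 and 27.7 on all 6 arrays, near background in both groups. The decrease of ATP10A therefore rests on 1 of its 2 probe sets, and their mean differed by -1.05.

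Both REEP1 probe sets were lower with LSD1 shRNA, the brighter to just below the lower quartile of the array and the dimmer further down. The brighter had 5.18, 5.20 and 5.15 on LSD1 shRNA arrays 1, 2 and 3, against 6.74, 7.13 and 7.11 on the A, B and C scramble arrays. The groups were separated by 1.54 log2 units, and the shRNA arrays lay within a narrow band with an SD of 0.026. The difference was -1.81 (SE 0.11) or 3.51-fold. The dimmer had 4.23, 3.63 and 3.62 with LSD1 shRNA, against 5.62, 6.29 and 6.15 with its scramble, a difference of -2.19 (SE 0.23). The LSD1 shRNA values stood at percentiles 23.8, 24.7 and 23.7 for the brighter probe set and 12.7, 8.17 and 7.84 for the dimmer, so the signal was near background there. Both REEP1 probe sets carry the _s_at ending.

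In all, 5 of the 6 probe sets were lower on every LSD1 shRNA array than on any scramble array, where 12.3% of all probe sets were. Of all genes, 4.92% passed an adjusted p under 0.05 in this comparison, 2% of genes downward and 2.93% upward. DHRS2, ATP10A and REEP1 held places 5, 6 and 8 from the most lowered among 11963 genes. The members were chosen from this comparison, so these counts and places describe the choice and carry no test. RNA quality was read as the ACTB signal at the 3′ end minus that at the 5′ end, which was 1.43 ± 0.12 (log2) with LSD1 shRNA and 1.30 ± 0.06 with its scramble (SD, n = 3 each), and its part in these differences was not tested.

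**Figure D1:**
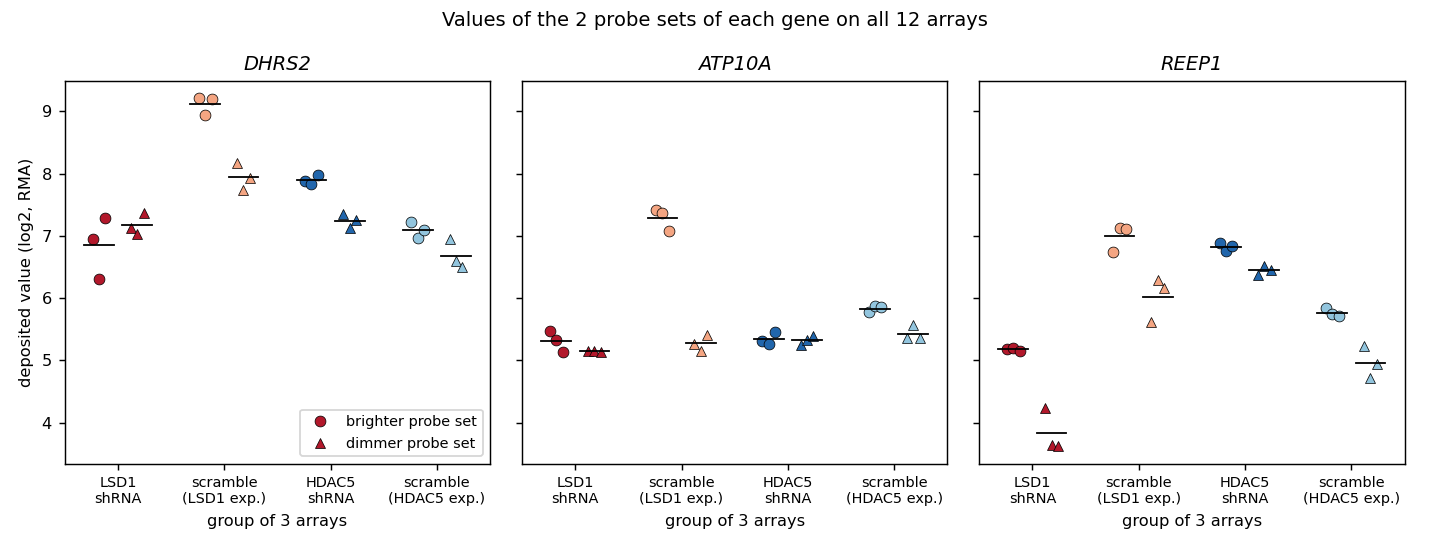
Deposited log2 values (vertical axis) of the brighter (circles) and dimmer (triangles) probe set of DHRS2, ATP10A and REEP1 on each array, by group of 3 arrays, with bars at the group means. The brighter DHRS2 probe set lay at 6.31 to 7.29 with LSD1 shRNA and at 8.95 to 9.21 with its scramble, while the dimmer ATP10A probe set stayed between 5.14 and 5.41 in these groups.

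With HDAC5 shRNA the 3 genes did not follow 1 direction: DHRS2 and REEP1 were higher than on the scramble arrays and ATP10A was lower. The working description of the genes as lowered with LSD1 shRNA alone therefore holds for DHRS2 and REEP1 but goes against the values of ATP10A. Since that description may have used the HDAC5 arrays too, the values are given without a test.

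DHRS2 had 7.88, 7.83 and 7.98 on HDAC5 shRNA arrays 1, 2 and 3 for its brighter probe set, against 7.23, 6.96 and 7.09 on scramble arrays 1, 2 and 3. The shRNA arrays were all above the scramble arrays, by at least 0.61 log2 units, and the difference was 0.81 (SE 0.08) or 1.75-fold. The dimmer one had 7.36, 7.12 and 7.26 with HDAC5 shRNA, against 6.94, 6.59 and 6.50 with its scramble, a difference of 0.57 (SE 0.11) with groups 0.18 apart.

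REEP1 was higher in both of its probe sets. The brighter had 6.89, 6.76 and 6.83 with HDAC5 shRNA, against 5.84, 5.74 and 5.70 with its scramble, a difference of 1.07 (SE 0.07) or 2.09-fold. The dimmer had 6.36, 6.52 and 6.46 with HDAC5 shRNA, against 5.24, 4.72 and 4.93 with its scramble, a difference of 1.48 (SE 0.12). No HDAC5 shRNA array overlapped the scramble arrays in either. Here REEP1 left the dim range, since the brighter probe set stood at percentiles 51.4 to 53.1 with HDAC5 shRNA and 39.8 to 41.6 with the scramble.

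ATP10A was lower in its brighter probe set, with 5.31, 5.27 and 5.45 with HDAC5 shRNA, against 5.78, 5.87 and 5.85 with its scramble. The groups were 0.33 log2 units apart and the difference was -0.49 (SE 0.07) or 1.40-fold. The dimmer probe set had 5.25, 5.32 and 5.39 with HDAC5 shRNA, against 5.35, 5.57 and 5.35 with its scramble, and the groups overlapped (difference -0.11, SE 0.08). Of the 6 probe sets, 4 were higher on every HDAC5 shRNA array, as were 22.5% of all probe sets, and 1 was lower, as were 23.5%. Of all genes 44.5% passed the threshold in this comparison, 23.2% downward and 21.3% upward.

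The same ACTB measure was 0.68 ± 0.08 with HDAC5 shRNA and 0.90 ± 0.06 with its scramble (SD, n = 3 each), and its part was not tested.

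**Figure D2:**
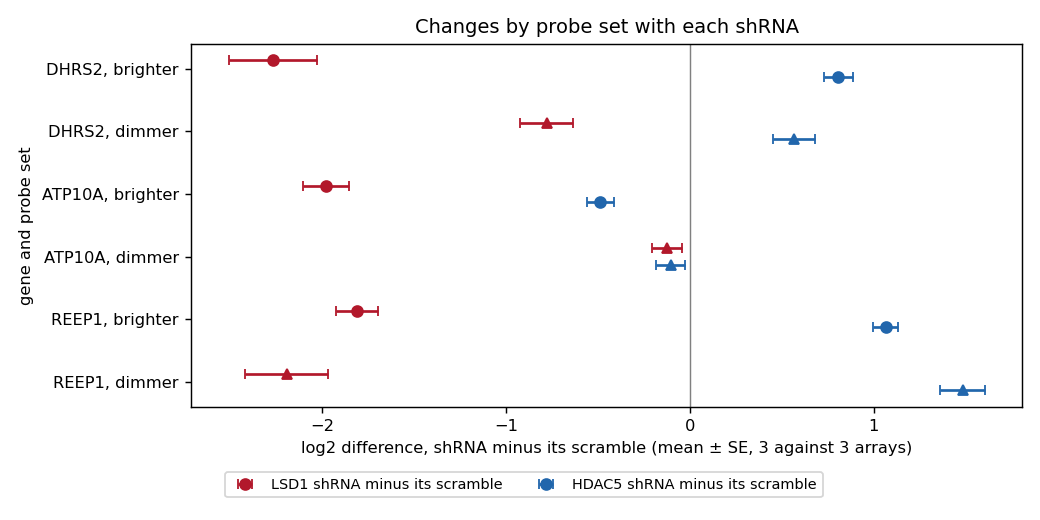
Log2 difference, shRNA minus its scramble (horizontal axis, mean ± SE, 3 arrays against 3), for each probe set with LSD1 shRNA (red) and HDAC5 shRNA (blue). Both probe sets of DHRS2 and of REEP1 lie left of 0 with LSD1 shRNA and right of it with HDAC5 shRNA, and the brighter ATP10A probe set lies left of 0 with both, at -1.98 and -0.49.

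The scramble arrays of the 2 experiments differed in the level of all 3 genes. The LSD1-experiment scramble arrays were above the HDAC5-experiment scramble arrays by 2.03 (log2) for the brighter DHRS2 probe set, 1.46 for ATP10A and 1.23 for REEP1. The median gene differed by 0.41 in the same direction, and relative to it the differences were 1.62, 1.05 and 0.82. After quantile normalization over all 12 arrays they were 1.65, 0.98 and 0.73. The dimmer ATP10A probe set went the other way, at -0.15 as deposited and -0.71 after quantile normalization. Percentiles on the array, which do not depend on the scale, ranged from 70.3 to 73.5 against 53.3 to 56.0 for DHRS2, from 50.2 to 54.0 against 40.8 to 41.9 for ATP10A, and from 46.3 to 50.6 against 39.8 to 41.6 for REEP1, with the LSD1-experiment scramble first. By percentile, DHRS2 with LSD1 shRNA (40.3 to 52.4) was thus just below the HDAC5-experiment scramble arrays in the brighter probe set and overlapped them in the dimmer (48.78 to 53.22 against 48.75 to 53.05), while the brighter probe sets of ATP10A (23.4 to 28.0) and REEP1 (23.7 to 24.7) were further below. The scramble arrays are those against which the members were chosen, so these are descriptions, read beside the 77.5% of all genes that passed the threshold between the scramble sets. Experiment and scramble set cannot be told apart.

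In the order of the 4 groups by percentile, LSD1 shRNA was lowest for the brighter probe set of all 3 genes, and no 2 groups overlapped in that probe set. For DHRS2 the HDAC5-experiment scramble, HDAC5 shRNA (62.3 to 63.7) and the LSD1-experiment scramble followed upward. For ATP10A, HDAC5 shRNA (34.8 to 37.2) came before the HDAC5-experiment scramble. For REEP1, HDAC5 shRNA (51.4 to 53.1) was highest, just above the LSD1-experiment scramble. The dimmer probe sets gave another picture in part. That of DHRS2 did not separate LSD1 shRNA from the HDAC5-experiment scramble, and in that of REEP1 HDAC5 shRNA (47.8 to 49.1) was well above the LSD1-experiment scramble (30.7 to 40.5), which overlapped the HDAC5-experiment scramble (26.1 to 33.6).

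Genes related to the 3 by family, function or place on the chromosome were read in 6 lists. Only genes with a probe set of 1 symbol were measured: 35 of 40 dehydrogenases, 14 of 15 P4-type ATPases and partners and 5 of 8 scramblases. The other lists held 11 of 19 reticulum-shaping genes, 7 of 10 p53 and MDM2 genes and 11 of 15 in the region around ATP10A. The rest of each list, with relatives of DHRS2 and REEP1, was not read. Over these lists 3 genes passed the threshold with LSD1 shRNA, beside 4.92% of all genes. At that share a short list can hold none. Of 35 other short-chain dehydrogenases/reductases 1 fell and none rose, a share of 2.86% against 4.92% of all genes. Their median difference was 0.03 against 0.01 for all genes, and 10 had an unadjusted p under 0.05. The gene that fell was HSD17B11, which encodes a hydroxysteroid dehydrogenase found at lipid droplets, with 10.28 ± 0.05 with LSD1 shRNA and 11.13 ± 0.17 with its scramble (-0.85, SE 0.10, limma adjusted p = 0.00949). It did not pass without scramble array B (adjusted p = 0.0630) or C (0.0538). HPGD, whose enzyme degrades prostaglandins, had a difference of larger size, -0.91 (SE 0.46), and did not pass by limma (adjusted p = 0.310).

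None of 14 other P4-type ATPases and CDC50 partners passed by limma, beside 4.92% of all genes, and 1 had an unadjusted p under 0.05. Their differences ran from -0.69 to 0.24 with a median of 0.02. TMEM30A, the CDC50 subunit that most of these flippases need, had 10.46 ± 0.10 with LSD1 shRNA and 10.62 ± 0.05 with its scramble. ATP10D, the relative of ATP10A in the same subclass, had 8.28 ± 0.28 with LSD1 shRNA and 8.05 ± 0.43 with its scramble, and ATP10B stayed dim (4.75 ± 0.11 and 4.64 ± 0.11). Of 5 phospholipid scramblases, proteins that move lipids both ways across a membrane, none passed by limma, beside the same 4.92%. Among them 1 had an unadjusted p under 0.05 (median 0.06).

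Among 11 other REEP proteins and proteins that shape the endoplasmic reticulum, 1 fell and none rose (median -0.13). That was a share of 9.09% against 4.92% of all genes, and 4 of the 11 had an unadjusted p under 0.05. The gene that fell was KTN1, the kinectin gene, at 12.51 ± 0.04 with LSD1 shRNA and 12.79 ± 0.03 with its scramble (-0.28, SE 0.04, limma adjusted p = 0.0197). Without any 1 of scramble arrays A, B and C or LSD1 shRNA arrays 1 and 3 it did not pass (adjusted p = 0.0584, 0.0861, 0.108, 0.0780 and 0.0710), nor did it without the trend (0.0633). REEP4, a relative with a role in clearing the reticulum from chromosomes in mitosis, had a difference of -0.36 and did not pass (limma adjusted p = 0.142). Of 7 genes around p53 and MDM2, the partners of DHRS2, none passed by limma, beside 4.92% of all genes. Among them 2 had an unadjusted p under 0.05, and the median was -0.15. MDM2 itself had 7.10 ± 0.01 with LSD1 shRNA and 7.35 ± 0.06 with its scramble (limma adjusted p = 0.114). Each list was chosen with earlier results of these data known, and no list was tested as a whole. The share of all genes with an unadjusted p under 0.05 was not counted, so the counts of such genes in a list cannot be called many or few.

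With HDAC5 shRNA the same families held many more calls, as did all genes. Of the 35 dehydrogenases 11 rose and 14 fell, a share of 71.4% against 44.5% of all genes, with a median of -0.10 against -0.02. The largest were DHRS3, a retinaldehyde reductase gene (-1.15, SE 0.13), the carbonyl reductase gene CBR3 (0.92, SE 0.05) and CBR4, a mitochondrial reductase gene (-0.86, SE 0.07). CBR4 did not pass in 1 fit of all 12 arrays (limma adjusted p = 0.0515). Thus DHRS2 and its relative DHRS3 differed in opposite directions with HDAC5 shRNA.

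Of the 14 P4-type ATPases and partners, 4 fell and none rose with HDAC5 shRNA, and the median was -0.12. That share of 28.6% was below the 44.5% of all genes. ATP8A1, a phosphatidylserine flippase gene, had 7.34 ± 0.10 with HDAC5 shRNA and 8.97 ± 0.08 with its scramble (-1.63, SE 0.07, limma adjusted p = 6.45e-08). ATP9A, which acts in endosomes, fell by 1.10 (SE 0.07), and ATP11B fell by 0.47 (SE 0.07). Averaged over all probe sets of a gene, the differences were -1.01 for ATP8A1 and -0.62 for ATP9A, and ATP11B did not pass in 1 fit of all 12 arrays (limma adjusted p = 0.0787). The brighter ATP10A probe set, at -0.49, was in the same range as ATP11B. Of 5 scramblases 2 fell, a share of 40% against the same 44.5%, and the median was -0.04. They were PLSCR4 (-1.12, SE 0.09) and TMEM41B (-0.11, SE 0.04). TMEM41B passed neither without scramble array 1 or 3 or HDAC5 shRNA array 1 or 2 (limma adjusted p = 0.0604, 0.0637, 0.0749 and 0.0692) nor with the replicate block (0.0794), without the trend (0.0845) or in 1 fit of all 12 arrays (0.488).

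Of the 11 genes that shape the endoplasmic reticulum 2 rose and 5 fell with HDAC5 shRNA, a share of 63.6% against 44.5% of all genes, with a median of -0.03. RTN1, a reticulon gene, rose by 0.96 (SE 0.06), RTN2 fell by 0.75 (SE 0.06) and REEP2, a close relative of REEP1, fell by 0.52 (SE 0.07). RTN2 did not pass in 1 fit of all 12 arrays (limma adjusted p = 0.0960). Of the 7 genes around p53 and MDM2, 5 rose and 1 fell (85.7%, median 0.28), led by the apoptosis gene BAX (0.49, SE 0.05), the oxidoreductase gene TP53I3 (0.45, SE 0.06) and MDM2 (0.32, SE 0.07). MDM2 did not pass when its probe sets were averaged (0.14, limma adjusted p = 0.0557). MDA-MB-231 carries a mutant p53.

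**Figure D3:**
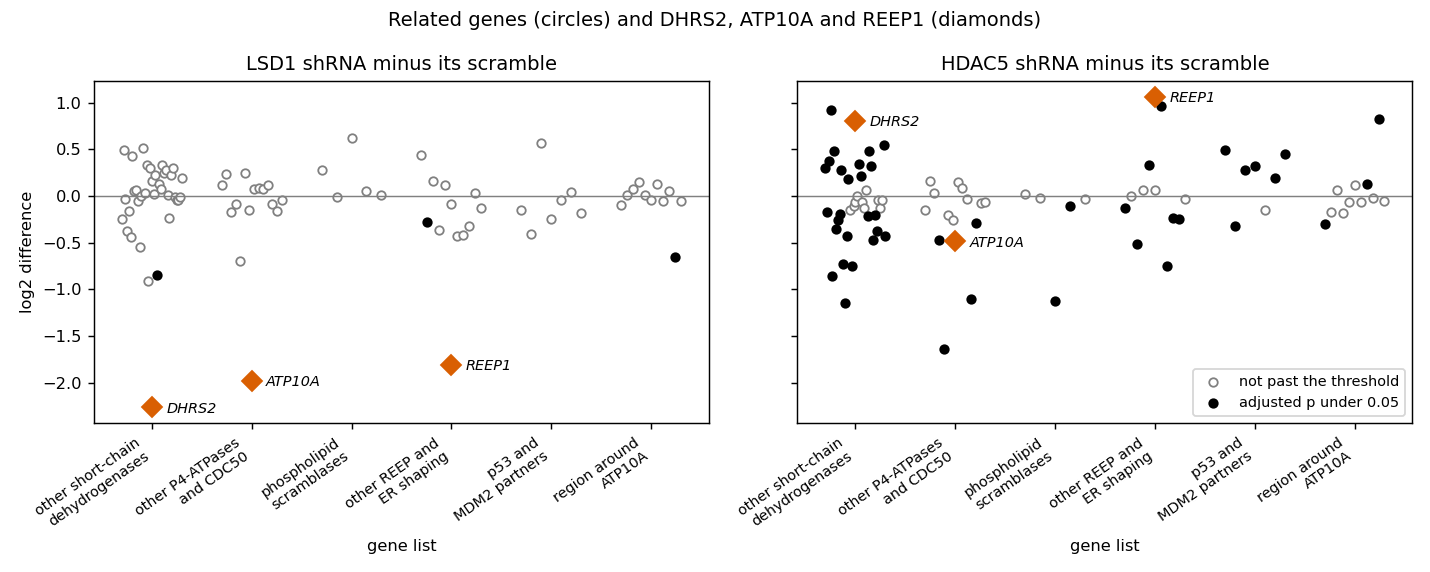
Log2 difference, shRNA minus its scramble (vertical axis), of each measured gene of the 6 lists with LSD1 shRNA (left) and HDAC5 shRNA (right), filled where the adjusted p was under 0.05, with DHRS2, ATP10A and REEP1 as diamonds beside their families. With LSD1 shRNA the P4-type ATPases lie between -0.69 and 0.24 and ATP10A at -1.98, and with HDAC5 shRNA ATP8A1 lies at -1.63 and ATP10A at -0.49.

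The neighbours of the 3 genes on their chromosomes were also examined, as the 5 nearest measured genes on each side in RefSeq order. None of the 30 passed by limma with LSD1 shRNA, beside 4.92% of all genes, a share at which few calls among 30 would be expected. An unadjusted p under 0.05 was found for 3, all of them near REEP1, a share not counted over all genes. The differences of the 30 ran from -0.20 to 0.30. On chromosome 14 the genes next to DHRS2 are AP1G2, a clathrin adaptor gene (0.04, SE 0.10), and CPNE6, a copine gene (-0.20, SE 0.12). On chromosome 15 those next to ATP10A are UBE3A, the imprinted ubiquitin ligase gene of Angelman syndrome (-0.05, SE 0.08), and the GABA receptor gene GABRA5 (0.01, SE 0.06). On chromosome 2 those next to REEP1 are MRPL35, a mitochondrial ribosome gene (0.30, SE 0.12), and KDM3A, a histone H3 lysine demethylase gene (-0.03, SE 0.12).

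Of 11 measured genes of the wider imprinted region around ATP10A, 1 fell with LSD1 shRNA and none rose, a share of 9.09% against 4.92% of all genes (median 0.01). It was TUBGCP5, a gamma-tubulin complex gene, at 6.01 ± 0.21 with LSD1 shRNA and 6.67 ± 0.15 with its scramble (-0.66, SE 0.13, limma adjusted p = 0.0389). It did not pass without scramble array A, B or C (adjusted p = 0.0892, 0.142 and 0.133) or LSD1 shRNA array 1 or 3 (0.0978 and 0.0819). With HDAC5 shRNA 2 of the 11 rose and 1 fell, a share of 27.3% against 44.5% (median -0.06): TUBGCP5 (0.83, SE 0.10), NIPA2, a magnesium transporter gene (0.12, SE 0.04), and CYFIP1, a regulator of actin (-0.31, SE 0.04). NIPA2 passed neither without scramble array 2 or 3 or HDAC5 shRNA array 1 or 3 (limma adjusted p = 0.0789, 0.0607, 0.0598 and 0.0911) nor with the replicate block (0.0660), without the trend (0.0723) or in 1 fit of all 12 arrays (0.178).

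With HDAC5 shRNA 3 of the 30 neighbours rose and 8 fell, beside 21.3% and 23.2% of all genes. None of those of ATP10A passed by limma, where 1 had an unadjusted p under 0.05. The largest difference was that of PCK2, the third measured gene beyond DHRS2 and the gene of the mitochondrial phosphoenolpyruvate carboxykinase, at -2.10 (SE 0.07, limma adjusted p = 1.97e-08). DHRS2 was higher in the same comparison. PCK2 was named after its value was seen. MRPL35, next to REEP1, rose by 0.46 (SE 0.04), and AP1G2, next to DHRS2, fell by 0.20 (SE 0.06).

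**Figure D4:**
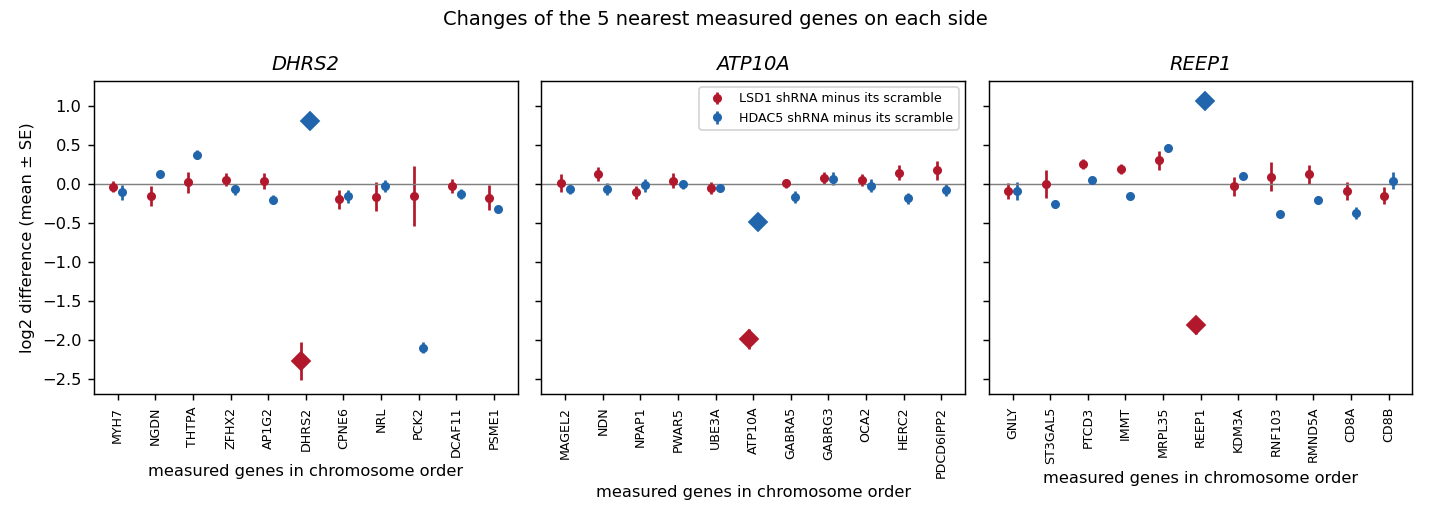
Log2 difference, shRNA minus its scramble (vertical axis, mean ± SE), of the 5 nearest measured genes on each side of DHRS2, ATP10A and REEP1 in chromosome order (horizontal axis, not to scale), with the 3 genes as diamonds, for LSD1 shRNA (red) and HDAC5 shRNA (blue). With LSD1 shRNA the neighbours lie between -0.20 and 0.30, and PCK2 lies at -2.10 with HDAC5 shRNA.

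The genes whose values followed the members most closely over the 12 arrays, after each experiment's mean was taken off, were found by Pearson's r, given as a description. For DHRS2 they were LAP3, an aminopeptidase gene (r = 0.986), MCUB, a subunit of the mitochondrial calcium uniporter (0.985), and ALG5, an enzyme gene of N-glycan assembly (0.984). LAP3 differed by -1.39 with LSD1 shRNA and by 0.64 with HDAC5 shRNA, as DHRS2 did in sign. For ATP10A they were F12, the coagulation factor XII gene (0.990), FAF2, a gene of protein degradation at the endoplasmic reticulum (0.981) and CELF2, an RNA-binding protein gene (0.977). F12 differed by -1.04 with LSD1 shRNA and by -0.16 with HDAC5 shRNA. For REEP1 they were EXOSC9, a subunit gene of the RNA exosome (0.982), STX2, a syntaxin gene (0.972), and SHLD2, a DNA repair gene (0.968). EXOSC9 differed by -0.79 with LSD1 shRNA and by 0.51 with HDAC5 shRNA. Among the members r was 0.938 for DHRS2 and REEP1, 0.787 for DHRS2 and ATP10A, and 0.695 for ATP10A and REEP1. All these values share the same 12 arrays and their 4 groups, and use only the probe set with the highest mean per gene. Taking off each experiment's mean left the difference between shRNA and scramble in r. The members were chosen as lower with LSD1 shRNA, so r among them follows in part from that choice and carries no test.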

How the data were processed

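RNA of 12 MDA-MB-231 samples was measured on Affymetrix arrays of 22277 probe sets. The deposited values are log2 and come from RMA (affy), per the submitters' processing notes. RMA equalises arrays and compresses small ratios at low signal. Its version and whether all arrays were processed together were not stated. Array medians were 7.05 to 7.15 in the LSD1 experiment and 6.58 to 6.64 in the HDAC5 experiment, so the deposited values were not equalised across the 2 experiments. Each of 12 value columns matched 1 sample, and 62 control probe sets were left out. Of the rest, 19064 had 1 symbol, 1043 several and 2108 none; 19052 were updated through RefSeq gene IDs (GRCh38.p14). The probe set with the highest mean stood for a gene. Each shRNA was fitted against its own scramble arrays (6 arrays) in R 4.3.3 by limma 3.58.1, using lmFit and eBayes with trend, and called at a Benjamini-Hochberg adjusted p under 0.05, and the fit was tested on simulated data; member values came from a fit of all 22215 probe sets. The number of arrays limits the precision.

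The members and the 6 gene lists (short-chain dehydrogenases, P4-type ATPases, scramblases, reticulum shaping, p53 and MDM2, the region around ATP10A) were chosen with earlier results of these data known. Named genes are the members, both targeted genes, up to 3 called genes per list and shRNA with the largest change, the nearest measured neighbours and the 3 most alike genes per member; HPGD, TMEM30A, ATP10B, ATP10D, REEP4 and PCK2 were added after their values were seen. Alternatives were the mean of probe sets, all probe sets, a filter on dim genes, 1 fit of 12 arrays, quantile normalization, no trend, leaving out each replicate, and a replicate block in the HDAC5 experiment. The numbers of that experiment were checked for pairing: deviations of same-numbered arrays correlated at -0.05, -0.21 and -0.15, so they were not taken as pairs.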

Additional observations from a re-analysis of the deposited data

Results flagged for a closer look

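Some of the members and of the called genes named from the lists were lower on every LSD1 shRNA array and higher on every HDAC5 shRNA array than on the scramble arrays of the same experiment. Only members and these named genes were searched. Members had been chosen as lower with LSD1 shRNA, and the named genes had passed with LSD1 or HDAC5 shRNA. That choice favours the pattern, which therefore carries no test. Singly, 12.3% of all probe sets were lower on every LSD1 shRNA array and 22.5% higher on every HDAC5 shRNA array. As the share with both was not counted, these genes cannot be called many or few. The difference between the 2 shRNAs was not tested for any gene. LSD1 change minus HDAC5 change was -3.07 (log2) for the brighter DHRS2 probe set and -1.35 for the dimmer, and -2.88 and -3.68 for those of REEP1. Among related genes it was -1.30 for CBR3, -1.06 for HSD17B11, -0.57 for MDM2 and -1.48 for TUBGCP5. CBR3 (limma adjusted p = 0.206) and MDM2 (0.114) had not passed with LSD1 shRNA. MDM2 also did not pass with HDAC5 shRNA when its probe sets were averaged (limma adjusted p = 0.0557). With LSD1 shRNA HSD17B11 did not pass without scramble array B or C. Nor did TUBGCP5 without scramble array A, B or C or LSD1 shRNA array 1 or 3.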

How the results depend on the processing

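The 12 member changes with an shRNA kept their direction under all 90 recomputations, which left out each array, used the mean of probe sets or normalized all arrays together. Where the groups did not overlap, leaving out 1 array could not reverse the direction, so this carries no test. The dimmer ATP10A probe set, whose groups met or overlapped, kept only -0.18 to -0.06 with LSD1 shRNA and -0.14 to -0.03 with HDAC5 shRNA without 1 array. Averaging all probe sets per gene moved the changes of the brighter probe sets beyond the spread between replicates: with LSD1 shRNA to -1.52 for DHRS2, -1.05 for ATP10A and -2.00 for REEP1, and with HDAC5 shRNA to 0.69, -0.30 and 1.27. Leaving out 1 array gave -2.49 to -2.00 for the brighter DHRS2 probe set, -2.09 to -1.89 for ATP10A and -1.94 to -1.75 for REEP1 with LSD1 shRNA. The scramble difference (LSD1 experiment minus HDAC5 experiment) was 1.65, 0.98 and 0.73 for the brighter and 0.86, -0.71 and 0.49 for the dimmer probe sets of DHRS2, ATP10A and REEP1 after quantile normalization, and 1.65 for DHRS2 and 0.65 for ATP10A with the mean of probe sets. With LSD1 shRNA 589 genes were called, 104 to 786 without 1 array (270, 111 and 104 on omitting scramble A, B or C; 150, 786 and 206 on omitting shRNA array 1, 2 or 3), and 2297 in 1 fit of 12 arrays. With HDAC5 shRNA 5319 were called, 3512 in 1 fit of 12 arrays, 8489 of all probe sets and 4869 with the replicate block, where same-numbered arrays correlated at -0.05, -0.21 and -0.15. Between the scramble sets 9276 were called, 17037 of all probe sets. Of these 9276, 83.5% were higher in the LSD1 experiment, against 50.5% of the 8148 called after quantile normalization. Over the 6 lists the calls with LSD1 shRNA were 0 to 3 without 1 array (0 without scramble B or C, and 1 without LSD1 shRNA 1) and 18 in 1 fit of 12 arrays, and those with HDAC5 shRNA 26 in that fit. The cause of these shifts was not tested. Signal near background limits ATP10A and REEP1.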
